A study of Mus musculus with 12 samples.

Results

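Of 121336 open chromatin regions measured by ATAC-seq in mouse blood progenitors, 598 (0.493%) kept their accessibility from LSK to GMP in WT cells and lost it in the PU.1 enhancer mutant only at the GMP stage. They were chosen by 4 conditions on CPM, counts relative to the library total, each taken as the mean of a group plus 0.25. The ratio of WT-GMP to WT-LSK lay between 0.5 and 2, WT-GMP reached at least 1.5, the ratio of URE-GMP to WT-GMP was at most 0.4, and the ratio of URE-LSK to WT-LSK lay between 0.67 and 1.5. Regions that met the first pair of conditions numbered 68353, and the members were 0.875% of them. Among the 13156 stable regions with a GMP ratio of at most 0.4, the members made up 4.55%, while 10716 had an LSK ratio of at most 0.4 as well.

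The libraries came from sorted bone marrow cells of C57BL/6 littermates aged 8 to 12 weeks, with 3 libraries in each of 4 groups. LSK were Lin-Sca-1+c-Kit+ cells, a gate that holds stem cells and multipotent progenitors, and GMP were Lin-Sca-1-c-Kit+CD16/32+ cells, the granulocyte-monocyte progenitors. WT-LSK and WT-GMP were wild type, and URE-LSK and URE-GMP carried UREd/d, the homozygous deletion of the upstream regulatory element of Spi1. The deletion is carried in the germ line and so is present in every cell of the animal, not in GMP alone. Total counts ran from 23072701 to 62204826 per library.

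PU.1, the product of Spi1, is an ETS family factor that binds purine-rich sites around the letters GAGGAA and opens chromatin together with partners such as C/EBP, IRF and RUNX factors. The upstream element is the main enhancer of Spi1 in blood cells, and its deletion lowers PU.1 without removing it. LSK use stem cell factors such as Meis1, Mecom and Runx1, and GMP switch to C/EBP-driven granulocyte and monocyte genes while the stem cell genes decline. An ATAC-seq count records how often the transposase cut in a region. In a bulk library, a lower level per cell and fewer cells with the region open cannot be told apart.

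The sequences below are the central 300 bases (GRCm38, plus strand) of members from both ends of the set and of a member in the Meis1 gene. The former are ranks 2, 5 and 6 of the highest in WT-GMP and ranks 1 to 4 of the lowest URE-GMP to WT-GMP ratios. The Meis1 member holds the PU.1 letters and was picked after its values and letters had been seen. Capitals mark matches, on either strand, to PU.1 (GAGGAAGT), RUNX (AACCACA), CEBP (TTGCNNAA), GATA factors (AGATAA), AP-1 (TGANTCA), HOX-MEIS (TGATTNAT) and the composite ETS-IRF element (GGAA, any 2 bases, GAAA). Of the motifs marked, the Emcn region holds 4 different matches, the Fam50b and Rbfox1 regions only AP-1 letters, and the Maml3 region none. The shorter core GAGGAA is not marked, and stands 1 time in the Maml3 region and 2 times each in the Rbfox1 and Slc15a1 regions. Regions are named by the protein-coding gene with the nearest start site, which need not be the gene they act on.
Coro2a region, chr4:46575493-46575792: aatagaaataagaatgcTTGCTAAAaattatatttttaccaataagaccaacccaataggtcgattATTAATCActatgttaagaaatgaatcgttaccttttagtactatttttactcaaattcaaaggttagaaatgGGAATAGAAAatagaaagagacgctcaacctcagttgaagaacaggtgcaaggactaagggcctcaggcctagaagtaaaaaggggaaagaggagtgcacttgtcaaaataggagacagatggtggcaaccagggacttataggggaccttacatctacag
Runx1 region, chr16:92822116-92822415: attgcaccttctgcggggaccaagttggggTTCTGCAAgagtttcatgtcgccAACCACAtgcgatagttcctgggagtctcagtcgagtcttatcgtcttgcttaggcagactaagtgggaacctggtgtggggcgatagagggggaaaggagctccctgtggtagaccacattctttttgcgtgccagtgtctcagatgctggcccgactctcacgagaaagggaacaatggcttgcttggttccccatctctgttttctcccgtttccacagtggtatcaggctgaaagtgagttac
Maml3 region, chr3:51789024-51789323: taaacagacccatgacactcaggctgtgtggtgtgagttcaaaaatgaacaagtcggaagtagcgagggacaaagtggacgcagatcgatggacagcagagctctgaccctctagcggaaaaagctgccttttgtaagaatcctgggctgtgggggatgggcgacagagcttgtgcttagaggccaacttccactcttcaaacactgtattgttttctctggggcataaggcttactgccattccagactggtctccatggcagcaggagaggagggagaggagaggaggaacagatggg
Fam50b region, chr13:34715476-34715775: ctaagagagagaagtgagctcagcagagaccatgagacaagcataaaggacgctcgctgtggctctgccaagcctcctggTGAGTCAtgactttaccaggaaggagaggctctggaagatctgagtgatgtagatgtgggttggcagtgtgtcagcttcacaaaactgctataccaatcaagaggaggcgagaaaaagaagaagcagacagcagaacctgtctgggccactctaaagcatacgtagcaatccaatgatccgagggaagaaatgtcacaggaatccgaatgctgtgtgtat
Rbfox1 region, chr16:7559168-7559467: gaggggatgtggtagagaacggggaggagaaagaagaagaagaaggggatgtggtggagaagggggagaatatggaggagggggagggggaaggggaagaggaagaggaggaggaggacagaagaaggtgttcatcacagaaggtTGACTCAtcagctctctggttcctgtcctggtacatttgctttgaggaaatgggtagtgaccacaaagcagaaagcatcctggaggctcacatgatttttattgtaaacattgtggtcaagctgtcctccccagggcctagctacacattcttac
Emcn region, chr3:137267710-137268009: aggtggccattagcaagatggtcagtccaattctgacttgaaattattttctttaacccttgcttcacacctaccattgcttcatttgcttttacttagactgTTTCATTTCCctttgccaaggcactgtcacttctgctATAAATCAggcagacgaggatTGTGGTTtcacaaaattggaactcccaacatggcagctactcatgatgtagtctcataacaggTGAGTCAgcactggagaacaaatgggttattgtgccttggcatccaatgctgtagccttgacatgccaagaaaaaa
Slc15a1 region, chr14:121521767-121522066: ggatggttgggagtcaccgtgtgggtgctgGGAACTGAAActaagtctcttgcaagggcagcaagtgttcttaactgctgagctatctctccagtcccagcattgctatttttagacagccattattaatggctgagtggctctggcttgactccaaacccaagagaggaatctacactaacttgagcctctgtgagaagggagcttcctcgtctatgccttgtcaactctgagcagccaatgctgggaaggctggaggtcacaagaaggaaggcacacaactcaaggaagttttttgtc
Meis1 intron region, chr11:18996820-18997119: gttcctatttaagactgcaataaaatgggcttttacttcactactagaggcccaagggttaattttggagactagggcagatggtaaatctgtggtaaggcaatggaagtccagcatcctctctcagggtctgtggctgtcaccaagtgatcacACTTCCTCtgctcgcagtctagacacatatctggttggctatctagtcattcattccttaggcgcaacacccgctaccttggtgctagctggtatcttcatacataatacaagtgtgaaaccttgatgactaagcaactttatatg

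The median member stood at a similar level in WT-LSK, URE-LSK and WT-GMP and lower in URE-GMP, while single members could differ between the first 3 groups within the limits of the rule. Values of single regions and libraries are CPM after TMM scaling, which corrects for differences in composition between libraries. The median member stood at 4.42, 4.26 and 4.49 CPM in the 3 WT-LSK libraries and at 4.21, 4.12 and 3.82 CPM in URE-LSK. It was 3.85, 3.90 and 4.53 CPM for WT-GMP against 1.16, 1.30 and 1.26 for URE-GMP. The URE-GMP libraries therefore lay apart from the other 9, as the rule required of their means. As a share of all counts, the members took 0.450% ± 0.0111 (SD, n = 3) of WT-LSK libraries, 0.384% ± 0.00475 of URE-LSK, 0.379% ± 0.0333 of WT-GMP and 0.115% ± 0.00661 of URE-GMP libraries. These values were selected on and are given as a description.

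**Figure D1:**
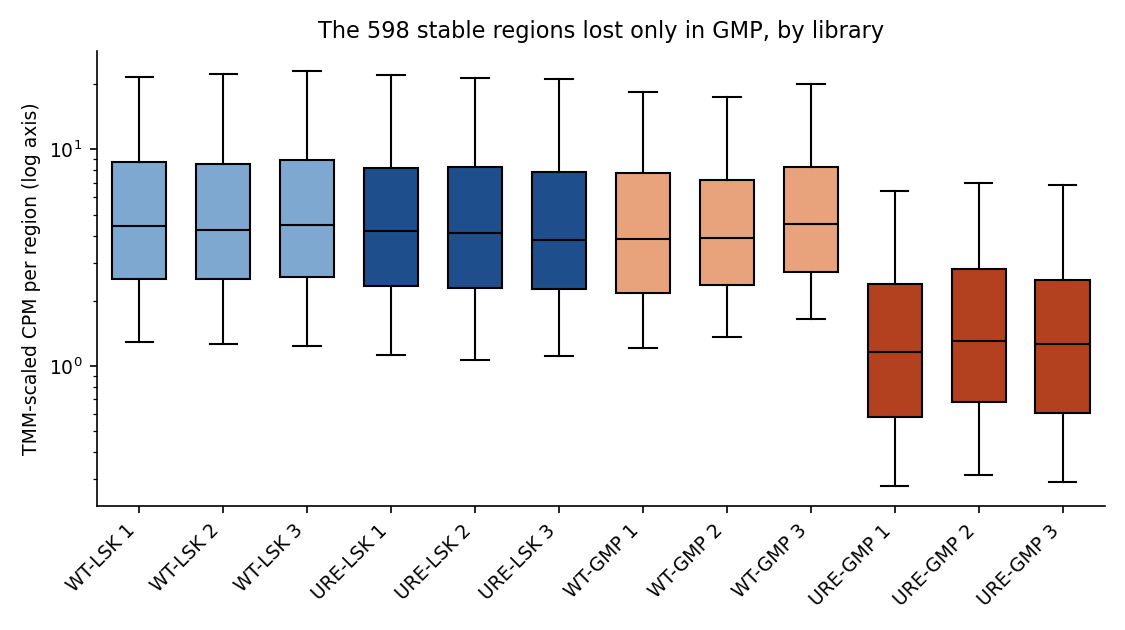
TMM-scaled CPM of the 598 regions (vertical log axis) in each of the 12 libraries (horizontal axis), with boxes from the lower to the upper quartile, a line at the median and whiskers from the 5th to the 95th percentile. Medians lie between 3.82 and 4.53 CPM in the 9 libraries of WT-LSK, URE-LSK and WT-GMP and between 1.16 and 1.30 CPM in URE-GMP.

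The loss in GMP was partial in most members. The ratio of URE-GMP to WT-GMP, on the scale of the rule, had a median of 0.337 and ran from 0.105 to 0.4. It was over 0.35 in 237 members and at most 0.2 in 17. No member was without counts in a URE-GMP library: 3 counts corresponded to between 0.0520 and 0.0727 TMM-scaled CPM there, and only 1 member in replicate 1 and 2 members in replicate 3 were at or under 3 counts. Members were mostly of moderate height, with 176 under 3 and 26 over 20 in WT-GMP. The spread between replicates of a group, as the median SD of log2 CPM over the members, was 0.18 (WT) and 0.20 (URE) for LSK and 0.26 (WT) and 0.25 (URE) for GMP.

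In LSK the members leaned towards lower values in the mutant without passing the limit of the rule. The ratio of URE-LSK to WT-LSK had a median of 0.809, was under 1 in 481 members, under 0.8 in 285 and at least 1 in 117. When the lower limit of 0.67 was set aside, 13132 regions met every other condition, against 622 when the upper limit of 1.5 was set aside. Just inside the lower limit was a region near Hipk2 at 0.6701, and just outside a region near Mfhas1 at 0.6694. When the GMP limit of 0.4 was set aside, 42052 regions met every other condition, the most for any limit. At that limit, a Chd2 region was just inside at 0.3999 and an Lrrc1 region just outside at 0.4002. At the other limits, the values inside and outside were 1.4986 (Tead1) and 1.5033 (Il10rb) for the upper LSK ratio, 0.5001 (Spata13) and 0.4997 (Rpl34) for the lower step ratio, 1.9931 (Bmp2k) and 2.0079 (Dctn6) for the upper step ratio, and 1.5044 (Dock1) and 1.4935 (4930578C19Rik) for the WT-GMP level.

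A negative binomial model over all 121336 regions (edgeR's quasi-likelihood test, called at an adjusted p under 0.05 with a log2 fold change past 1) gave the errors of these differences. All 598 members were called lower in URE-GMP than in WT-GMP, where 24.1% of all regions were, with a median log2 fold change of -1.68 against 0.06 over all regions. In 594 members, all 3 URE-GMP libraries lay below all 3 WT-GMP libraries, where 32.1% of all regions did so. None was called in LSK in either direction, where 37.5% of all regions were. At any fold, 44 members (7.36%) had an adjusted p under 0.05 in LSK by edgeR, 28 lower and 16 higher in URE, where 56.8% of all regions did. An unadjusted p under 0.05, a looser limit that at least 56.8% of all regions met, was reached by 75 members. DESeq2 called 0 members as well, where it called 38.2% of all regions. The URE-LSK and WT-LSK libraries did not overlap in 174 members, where 66.7% of all regions were separated. The rule used all of these values, so the counts describe the set and support nothing about it.

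The median log2 fold change of the members in LSK was -0.21 while that of all regions was 0.14, but this sign turned under another scaling. The medians were 0.21 and 0.28 after correction for GC content, and -0.03 and 0.16 after loess correction for abundance. The members thus lay below the median region in LSK under each of these scalings, by amounts that differed between them.

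The difference between the cell types was tested for each region as an interaction, in which negative values mean that UREd/d lowered GMP more than LSK. It was called negative in 527 members (88.1%), where 5.03% of all regions were, with a median of -1.54. The limits set on the GMP and LSK ratios fixed this direction, so the count is a description. For the other 71 members a difference between LSK and GMP was not shown at these thresholds. Tested against a fold of that size rather than against 0 (glmTreat), 137 members (22.9%) were called, where 0.622% of all regions were. Also selected on by way of the rule, 492 members (82.3%) were called lower in URE-GMP than in URE-LSK, where 21.6% of all regions were. In WT, 25 members (4.18%) were called higher in GMP, where 21.0% of all regions were, and 5 (0.836%) lower, where 16.8% were. These small numbers follow from the range set for the step, and without WT-GMP replicate 3 the calls were 13 higher and 91 lower. At any fold, 282 members (47.2%) had an adjusted p under 0.05 for the WT step by edgeR, where 58.8% of all regions did.

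**Figure D2:**
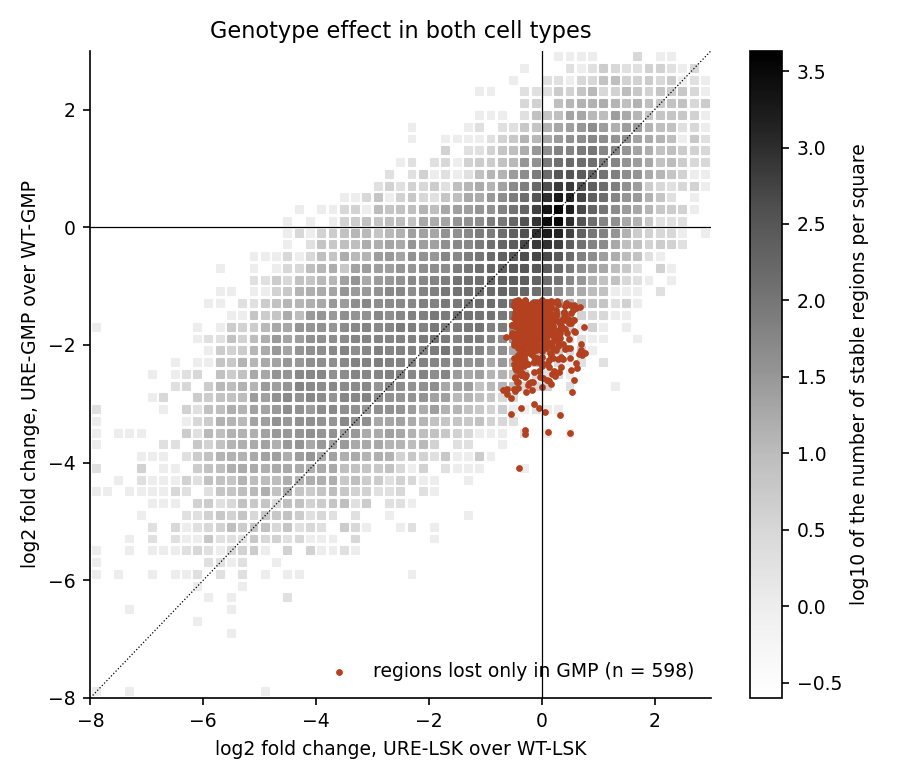
Log2 fold change of URE over WT in LSK (horizontal axis) and in GMP (vertical axis). Grey squares count the stable regions with a WT-GMP level of at least 1.5 on a log10 scale, red points are the 598 regions lost only in GMP, and the dotted line marks equal effects. The red points sit at the right-hand edge of the cloud of regions that fell in GMP, most of which also fell in LSK.

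Because the rule read all 12 libraries, its outcome was also described in libraries it had not read, an alternative added after the data had been examined. The rule was applied to 2 libraries of each group, and the library with the remaining number was looked at. With number 1, 2 or 3 held out, 746, 749 and 537 regions were chosen, of which 459, 465 and 384 were among the 598 members. The values below are those of the chosen regions and not of the members alone. In the held-out libraries their GMP ratio had a median of 0.388, 0.390 and 0.315, against 0.989, 0.956 and 0.927 over all regions. Their LSK ratio had a median of 0.807, 0.821 and 0.755 and stayed within 0.67 to 1.5 in 74.9%, 71.4% and 61.5% of them. The GMP ratio was below the LSK ratio in 94.1%, 97.7% and 98.1% of the chosen regions and in 42.9%, 50.5% and 53.0% of all regions. The GMP ratio was at most 0.4 in 53.4%, 52.7% and 78.8% of them. A lower GMP than LSK ratio was thus found in most of the chosen regions in libraries that took no part in the choice, while many left one or the other limit there.

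The DNA letters of the members were not used by the rule. PU.1 letters stood in the central 300 bases of 74 members (12.4%). The share was 22.0% in the stable regions lost in both cell types, 27.1% in the 993 stable regions lost only in LSK, 3.58% in the 34559 stable regions kept in both and 8.70% in all regions. The shorter core GAGGAA was found in 49.8% of the members, 66.2% of the regions lost in both and 39.7% of all regions. The share in the members thus lay below those of the other lost sets and above that of kept regions, with either form of the letters. Of 77 PU.1 matches in members, 38 (49.4%) lay within 50 bp of the region's centre, against 63.6% in regions lost in both. These shares are descriptions of sequence and carry no test.

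RUNX, GATA, HOX-MEIS, ETS-IRF and AP-1 letters had their highest shares in the members among these sets. RUNX letters stood in 135 members (22.6%), against 12% of regions lost in both, 17.7% of those lost only in LSK and 14.4% of all regions. GATA letters stood in 133 members (22.2%), against 14.8%, 10.7% and 12.9%. HOX-MEIS letters stood in 42 members (7.02%), against 3.35%, 1.91% and 3.26%. For the ETS-IRF element, which PU.1 can bind with an IRF partner, the shares in the same order were 10.2%, 7.93%, 3.42% and 4.46%. AP-1 letters followed with 14.2%, 10.3%, 10.4% and 12.1%.

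CEBP letters were most frequent in the regions lost only in LSK (28.6%). The members (10.9%) lay near the regions lost in both (12.4%) and those kept in both (10.2%), with 16.4% of all regions. CTCF letters were found in 2 members (0.334%) and in 3.75% of all regions. They were as rare in regions lost in both (0.121%) and in those lost only in LSK (0.302%). The IRF letters (GAAA, any 2 bases, GAAA) stood in 7.02% of the members and 4.93% of all regions, the STAT letters (TTCNNNGAA) in 8.70% and 8.33%, the E-box CAGCTG in 21.1% and 20.5%, and the ETS letters CCGGAAGT in 3 members (0.502%) and 1.22% of all regions. None of these letters other than the PU.1 core was found in 120 members (20.1%). Motifs can overlap: every PU.1 match contains the core, and ETS-IRF and IRF share letters. Outside promoters the order was alike, with RUNX in 24.1% of the members and 16.1% of all such regions, GATA in 22.1% and 14.4%, and PU.1 in 12.8% and 9.62%. Members with and without PU.1 letters had similar median log2 fold changes in GMP, at -1.69 and -1.67. The rule limited the GMP ratio of every member, so these medians cannot show whether the letters go with the size of the loss. Of all regions, those with PU.1 letters had a median of -1.11, against 0.06 over all regions.

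**Figure D3:**
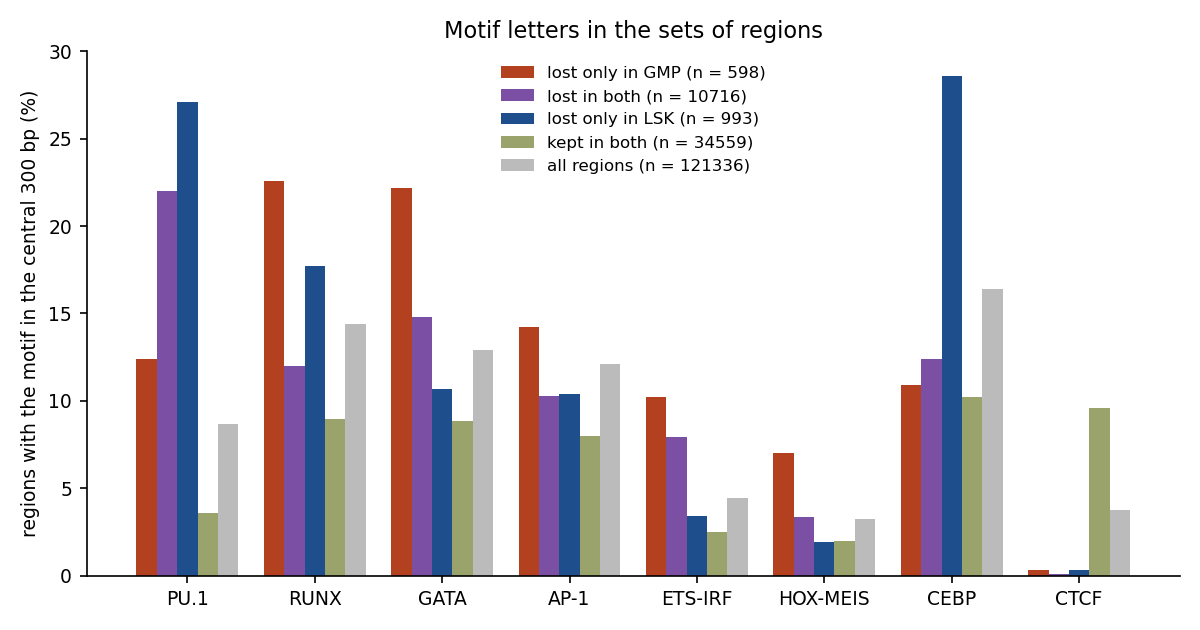
Share of regions (vertical axis, percent) whose central 300 bp hold the letters of each motif on either strand, for the regions lost only in GMP and 4 comparison sets. In the regions lost only in GMP, RUNX (22.6%) and GATA (22.2%) are the most frequent of the motifs shown, while PU.1 (27.1%) and CEBP (28.6%) lead in the regions lost only in LSK.

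By position the members were mostly distal. Promoter regions, within 500 bp of a start site, made up 59 members (9.87%), against 42.0% of the stable regions kept in both and 18.9% of all regions. The other lost sets had similar shares, 7.55% in regions lost in both and 9.97% in those lost only in LSK. Of the members, 329 (55.0%) were centred in an intron and 233 (39.0%) between genes. These shares were 53.8% and 38.8% in regions lost in both, and 49.5% and 36.2% in all regions. The median distance to a protein-coding start site was 19754 bp, against 15344 bp in regions lost in both and 11038 bp in all regions, and 173 members (28.9%) lay over 50 kb away. Members were wider than all regions, with a median of 400 bp against 322 bp, and their median GC content was 47.7% against 49.7%. Regions lost in both had medians of 309 bp and 48.0%, and those lost only in LSK 373 bp and 48.7%. The 59 promoter members had a median of 5.72 CPM for WT-GMP against 2.02 for URE-GMP, and the other members 3.97 and 1.17 CPM. Among the promoter members, named here after they had been seen, were those of Evl, an actin regulator, Tnip1, an inhibitor of NF-kappaB signalling, Wsb2, Ankrd44 and the chemokine gene Pf4.

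A region lost in both was found within 50 kb of 380 members (63.5%), and of 56.3% of the 57637 stable regions that were not lost in both themselves. Another member was that near for 68 (11.4%), and 14.0% of the regions lost only in LSK had another of their own set that near. In all, 6 runs held 3 or more members within 100 kb of the next, at Meis1 (a group of 4 and a group of 3), Dock1, Gcnt2, Mef2c and Mcf2l.

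The highest members in WT-GMP were broad intronic or promoter regions. At Coro2a, which encodes an actin-binding coronin, a region on chromosome 4 (46574938 to 46576347) stood at 35.9, 32.3 and 31.4 CPM for WT-LSK, at 28.1, 29.3 and 22.6 for URE-LSK, at 43.9, 28.3 and 36.5 for WT-GMP and at 11, 12.4 and 11 for URE-GMP. Its log2 fold change was -1.66 in GMP (SE 0.14) and -0.32 in LSK (SE 0.14). The URE-GMP libraries lay below the other 9, and the LSK groups did not overlap. At Smarca2, the gene of a chromatin remodelling ATPase, an inner start site on chromosome 19 (26747548 to 26748598) stood at 47.5, 47.5 and 48.2 CPM for WT-LSK, at 52.9, 47.1 and 40.0 for URE-LSK, at 33.2, 28.4 and 32.8 for WT-GMP and at 12, 13.5 and 10.1 for URE-GMP. The LSK groups overlapped there, and the GMP groups did not. At Tiam1, an activator of the GTPase Rac, an intronic region on chromosome 16 (89871353 to 89872730) had 18.1, 17.5 and 18 CPM (WT) and 24.3, 19.7 and 23.7 CPM (URE) for LSK, against 33.1, 24.1 and 26.5 CPM (WT) and 8.96, 9.19 and 8.77 CPM (URE) for GMP. Its log2 fold change was 0.33 in LSK and -1.63 in GMP, so the effects pointed in opposite directions.

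The rest of the 10 highest members had WT-GMP means from 26.3 to 42.0 CPM and log2 fold changes in GMP from -1.77 to -1.23. They lie at Arhgap12, at Runx1, at B4galt6 and Sgms1, which encode enzymes of sphingolipid synthesis, and at Maml3, a Notch coactivator, Zfp521, a zinc finger factor of early progenitors, and Fancc, a Fanconi anaemia repair gene. At the Arhgap12 promoter region the LSK groups did not overlap, with 60.6, 50.7 and 51.5 CPM in WT-LSK and 76.9, 72.4 and 65.5 in URE-LSK, while WT-GMP at 51.0, 35.7 and 39.4 stood over URE-GMP at 14.4, 17.2 and 11.6. The interaction at B4galt6 was not past the threshold (-0.93, adjusted p = 0.0721, edgeR), with 15.0, 22.5 and 8.41 CPM in URE-GMP.

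The 10 steepest losses were found outside promoters, in regions with WT-GMP means from 1.92 to 15.4 CPM, below those of the 10 highest members. A region on chromosome 13 (34715374 to 34715878), 19225 bp upstream of the start site of Fam50b, stood at 12.7, 14.6 and 12.6 CPM for WT-LSK, at 11.2, 11.2 and 9.91 for URE-LSK, at 6.23, 10.5 and 12.5 for WT-GMP and at 0.840, 0.642 and 1.14 for URE-GMP. Its ratio was 0.105 in GMP and 0.751 in LSK, and WT-GMP replicate 1 lay well under the other WT-GMP libraries. On chromosome 16 (7559094 to 7559541), in the wider locus of the splicing regulator Rbfox1, a region had 5.56, 7.60 and 6.89 CPM for WT-GMP against 0.517, 0.382 and 0.921 for URE-GMP. It tended to be higher in URE-LSK (8.33, 5.28 and 10.5 CPM) than in WT-LSK (6.59, 5.22 and 5.23 CPM), but those groups overlapped. The Emcn region on chromosome 3 (137267753 to 137267966), 73208 bp upstream of the gene of endomucin, a sialoglycoprotein of stem cells and endothelium, was small: 2.22, 1.76 and 1.77 CPM for WT-GMP against 0.108, 0.156 and 0.0485 for URE-GMP. It had 1.34, 1.14 and 1.47 CPM in WT-LSK and 1.02, 1.06 and 0.940 in URE-LSK.

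At Irf2, an interferon regulatory factor that maintains stem cell quiescence, a region on chromosome 8 (46818180 to 46819335) combined height with a steep loss. It stood at 27.7, 22.7 and 28.1 CPM for WT-LSK, at 21.9, 21.3 and 17.9 for URE-LSK, at 14.6, 14.4 and 17.1 for WT-GMP and at 2.60, 3.38 and 2.04 for URE-GMP. The mutant LSK libraries thus lay between the LSK and GMP libraries of WT, and neighbouring groups did not overlap. The rest of the 10 steepest members lie nearest to Slc15a1, Sema6d, Rtn4, Bean1, Slc22a23 and Kcnk12, with GMP ratios from 0.169 to 0.187 and LSK ratios from 0.686 to 1.08.

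Lists of genes were set against the members within 50 kb of a start site. Stem cell transcription factors had the highest share of the 9 pathway lists. Of 471 regions around 20 genes, 9 (1.91%) were members, at Meis1, Mecom, Mef2c and Hlf, against 0.436% of all regions within 50 kb of a protein-coding gene. Of these 9, 4 form 1 group at Meis1, so the share rests in part on a single gene. The LSK marker genes, which overlap that list, had 7 of 122 (5.74%), the same 4 Meis1 regions among them. Cytokine receptors had 5 members among 325 regions (1.54%), at Tnfrsf1a, Il6st, Il6ra, Il10ra and Il4ra. Myeloid transcription factors had 3 of 441 (0.680%), at Runx1, Jun and Cebpe, cell cycle and survival genes 2 of 308 (0.649%), at Ccnd1 and Cdkn2c, and monocyte surface genes 2 of 353 (0.567%), at Ly86 and Mrc1. The lists of neutrophil, kinase signalling, autophagy and lysosome, and lymphoid genes had 0 members among 303, 458, 296 and 326 regions. Within 5 kb of a protein-coding start site, 0.333% of all regions were members. The shares there were 5 of 145 (3.45%) at stem cell factors, 2 of 128 (1.56%) at myeloid factors and 2 of 71 (2.82%) at cell cycle genes. Cytokine receptors had 0 of 78 at that distance and monocyte surface genes 0 of 74. The counts are small and were not tested.

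Among the stem cell genes, the Meis1 region 1545 bp upstream of the start site (chromosome 11, 19020204 to 19020858) stood at 23.8, 25.9 and 26.2 CPM for WT-LSK, at 25.8, 23.9 and 21.8 for URE-LSK, at 19.7, 15.4 and 19.5 for WT-GMP and at 5.79, 7.91 and 6.35 for URE-GMP. Meis1 is the homeodomain partner of HOX factors in stem cells, and the LSK groups overlapped while the GMP groups did not. The intronic Meis1 region whose sequence holds the PU.1 letters stood at 3.23, 2.45 and 1.55 CPM for WT-LSK, at 4.50, 3.18 and 4.31 for URE-LSK, at 2.43, 2.73 and 3.11 for WT-GMP and at 0.861, 0.885 and 0.8 for URE-GMP. It was thus among the members with the highest LSK ratios, at 1.48. In Mef2c, a factor of lymphoid and myeloid progenitors, an intronic region on chromosome 13 (83649695 to 83650365) had 9.91, 11.6 and 11.8 CPM for WT-GMP against 2.67, 3.96 and 2.37 for URE-GMP, with a log2 fold change of -1.88 (SE 0.21). In Mecom, the stem cell factor also called Evi1, an intronic region on chromosome 3 (30091944 to 30092288) went from 7.99, 9.13 and 10.4 CPM in WT-GMP to 3.32, 3.43 and 3.68 in URE-GMP. Upstream of Hlf, a marker factor of stem cells, the WT-GMP values were 8.83, 7.93 and 8.97 CPM and the URE-GMP values 3.25, 3.76 and 3.46 CPM, and in LSK the mutant was also lower (log2 fold change -0.45, SE 0.16).

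The Runx1 region, 3513 bp downstream of a start site on chromosome 16 (92821637 to 92822894), stood at 43.2, 41.1 and 52.5 CPM for WT-LSK, at 34.7, 38.5 and 29.3 for URE-LSK, at 29.1, 25.7 and 38.9 for WT-GMP and at 11.6, 11.7 and 15.7 for URE-GMP. Its interaction of -0.85 (SE 0.22) did not reach the fold threshold, and its LSK ratio of 0.691 lay near the limit. Upstream of Jun, an AP-1 subunit, WT-GMP had 10.5, 6.53 and 6.98 CPM and URE-GMP 1.94, 2.95 and 2.01. The Cebpe region lies 12072 bp upstream of the start site of this granulocyte factor, in an annotated coding exon outside Cebpe. It was weak, with 1.21, 1.11 and 2.44 CPM for WT-GMP against 0.517, 0.486 and 0.315 for URE-GMP.

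Of the receptor regions, the one in an intron of Tnfrsf1a, the main TNF receptor, stood highest, with 20.8, 26.3 and 24.9 CPM in WT-GMP, 6.52, 9.80 and 6.61 in URE-GMP, 26.1, 31.1 and 28.7 in WT-LSK and 24.8, 25 and 22.8 in URE-LSK. A region 30507 bp upstream of Il6st, which encodes the shared signal subunit of IL-6 family receptors, had 10, 10.5 and 12 CPM for WT-GMP against 3.32, 4.77 and 3.95 for URE-GMP, and its LSK ratio was 0.680. The Il10ra region, whose nearest coding start site is that of Tmprss13, was lower, with 3.30, 2.90 and 3.18 CPM for WT-GMP against 1.16, 0.867 and 1.26 for URE-GMP.

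Cell cycle genes were represented by regions at or just upstream of their start sites. Upstream of Ccnd1, the gene of cyclin D1, WT-GMP had 23.0, 17.5 and 17.1 CPM and URE-GMP 6.82, 8.40 and 5.60, with 20.6, 18.8 and 19.5 in WT-LSK and 17.6, 17.3 and 14.8 in URE-LSK. In a weak region beside the main promoter region of Cdkn2c, an inhibitor of cyclin D kinases, WT-GMP had 7.95, 4.09 and 4.84 CPM and URE-GMP 2.48, 2.31 and 1.70. The main promoter region of Cdkn2c, on chromosome 4 (109665619 to 109667318) and no member, averaged 75.4 CPM (WT) and 72.7 CPM (URE) for GMP. Upstream of Ly86, the partner of the Toll-like receptor homologue CD180, WT-GMP had 4.43, 4.34 and 3.34 CPM and URE-GMP 1.03, 1.65 and 0.872. In Mrc1, the macrophage mannose receptor, the values were 1.67, 1.72 and 1.94 against 0.474, 0.815 and 0.388 CPM. At the promoter of Pf4, a platelet chemokine, they were 10, 7.76 and 11 against 2.88, 3.85 and 4.77 CPM.

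**Figure D4:**
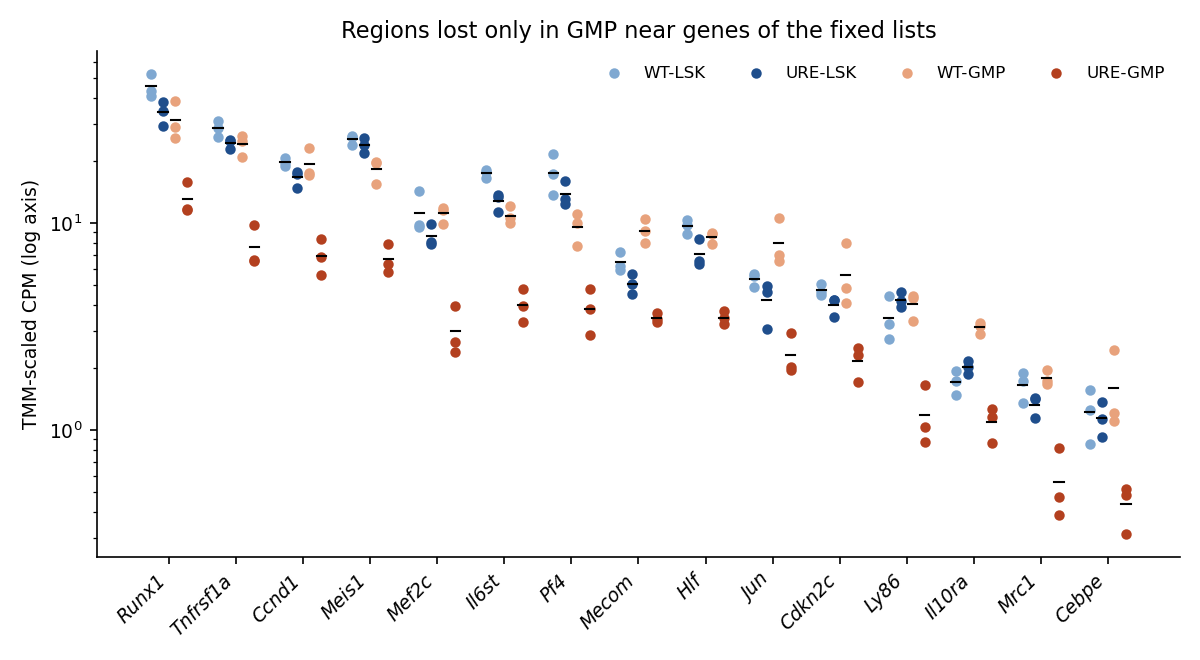
TMM-scaled CPM (vertical log axis) of the members near genes of the lists, with 1 point per library and a line at the mean of 3 libraries, with LSK (WT, then URE) to the left of GMP (WT, then URE) at each gene. URE-GMP is the lowest group at every gene shown, as the rule required of its means against WT-GMP.

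Most genes had a single member nearest to them: 498 of 542, with 38 genes at 2 and 6 at 3 or more. Meis1 had 8 members of 57 regions, Dock1, a Rac activator, 4 of 17, and Mcf2l, Gcnt2, Dnm3 and Mef2c 3 each of 26, 33, 34 and 59. Nsg2, Fam234b, Gpr171 and Dpysl2 completed the list of 10 with 2 each. The 8 Meis1 members had WT-GMP means from 2.76 to 18.2 CPM and GMP ratios from 0.232 to 0.389, while their LSK ratios ran from 0.773 to 1.48. Their ratios of WT-GMP to WT-LSK ran from 0.540 to 1.09 and were under 1 in all but the intronic region with the PU.1 letters. Most of them were thus already lower in GMP than in LSK in WT. At the Dock1 promoter region on chromosome 7 (134670352 to 134671269) the values were 16.7, 14.9 and 16.5 CPM for WT-LSK, 17.3, 17.5 and 13 for URE-LSK, 22.1, 17.2 and 12.9 for WT-GMP and 6.41, 7.67 and 5.69 for URE-GMP.

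Meis1 was looked at further because it had the most members. Of 10 non-member regions within 10 kb of its start sites, all 10 had a log2 fold change below 0 in GMP and 7 were called lower, with 24.1% of all regions. In LSK edgeR called 0 of the 10, with 37.5% of all regions, and 3 had an adjusted p under 0.05 there, 2 lower and 1 higher in URE. The strongest of them, a promoter region on chromosome 11 (19018295 to 19019250), averaged 51.3 CPM (WT) and 46.3 CPM (URE) for LSK and 31.2 CPM (WT) and 16.5 CPM (URE) for GMP. Its log2 fold change was -0.92 in GMP (SE 0.11) and -0.15 in LSK, a difference of -0.77 (SE 0.16, interaction adjusted p = 0.00379, edgeR). In WT this promoter region was also lower in GMP than in LSK (log2 fold change -0.72, SE 0.11). Over all 49 non-members nearest to Meis1, 32 were called lower in GMP and 13 in LSK, and the interaction was called negative in 15 and positive in 2.

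**Figure D5:**
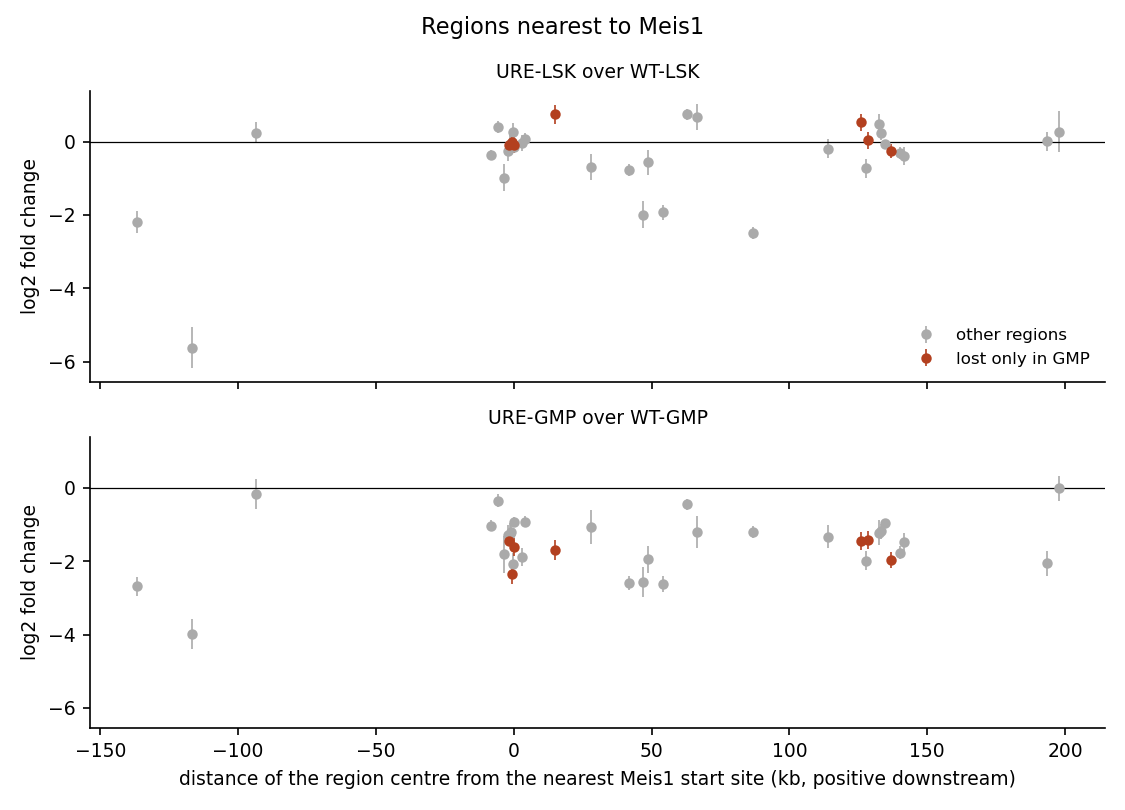
Log2 fold change (vertical axes, with bars of 1 SE) of URE over WT in LSK (top) and GMP (bottom) for the 37 regions within 200 kb of a Meis1 start site that are nearest to this gene, by distance from it in kb. The 7 regions lost only in GMP (red) lie between -0.26 and 0.74 in LSK and between -2.36 and -1.42 in GMP, and the 10 grey regions within 10 kb of a start site are all below 0 in GMP.

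The same was described for all neighbours. Of the 5843 non-members within 50 kb of a member, 1873 (32.1%) were called lower in GMP, with 24.1% of all regions, and 449 (7.68%) had a negative interaction call, with 5.03% of all regions. A positive interaction call was as frequent there (7.68%), with 8.96% of all regions. Within 10 kb the shares were 38.3% and 11.8% of 1436 regions. Of the 5843 neighbours, 1395 were called lower in both cell types and 469 in GMP only. Some of these neighbours missed the rule by a narrow margin, so they are not a set apart from it.

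The promoters of the genes nearest to the members were measured separately, by the strongest region within 500 bp of a start site. Of 470 such regions that were no members, 32 (6.81%) were called lower in GMP, where 4.28% of the 13356 strongest promoter regions were. A negative interaction was called in 13 (2.77%), where 1.09% of the strongest promoter regions had one, and a positive one in 1.70%, where 1.76% had one. Their median log2 fold change was 0.11 in GMP and 0.22 in LSK, against 0.18 and 0.23 over all such promoter regions. Most promoters of the nearest genes were thus not among the regions called lower in URE-GMP. Of the 35 named genes with such a promoter region, which were named for their members, 9 had a negative and 1 a positive interaction at an adjusted p under 0.05 (edgeR), Meis1 among the former. Of the 13356 strongest promoter regions, 4.17% had a negative and 3.23% a positive one. Of the 35, 4 were called lower in GMP, where 4.28% of the 13356 were. Their log2 fold changes in GMP and LSK were -1.35 and -1.18 at Mef2c, -1.44 and -2.89 at Ly86, -2.47 and -1.52 at Kcnk12, and -1.51 and -0.3 at Emcn. The promoter regions of Mef2c, Ly86 and Kcnk12 were thus lower in both cell types, unlike the members near these genes. That of Emcn met the limits on the GMP and LSK ratios and missed the rule only at the step.

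The regions at marker genes served to check the labels and the mixture of cells. Regions within 5 kb of GMP markers summed to between 685 and 899 CPM in WT-GMP and between 1093 and 1167 CPM in URE-GMP, against 190 to 196 CPM in WT-LSK and 146 to 230 CPM in URE-LSK. Those of LSK markers, of which 4 of 38 are members, summed to between 379 and 455 CPM in WT-GMP and between 332 and 372 CPM in URE-GMP, with 564 to 586 CPM in WT-LSK and 584 to 689 CPM in URE-LSK. The LSK marker sum thus moved with the members in GMP, while it was not lower in URE-LSK, and its part in the result was not tested. For the other lists the GMP ranges were 64.5 to 72.6 (WT) and 68.4 to 70.3 CPM (URE) at erythroid genes, 88.9 to 131 and 82.4 to 101 at megakaryocyte genes, 93.4 to 119 and 108 to 130 at mast cell and basophil genes, 36 to 45.9 and 47.1 to 52.2 at B cell genes, 57.2 to 63.6 and 73.7 to 80.9 at T cell genes, and 157 to 179 and 92.6 to 116 at monocyte and dendritic cell genes. Fcgr3, Ly6a, Car1, Prss34 and Ms4a2 had no region within 5 kb.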

How the data were processed

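ATAC-seq was measured in 12 libraries, 3 mice per group. The authors deposited 1 table of whole-number counts of fragments per region, not normalized, over 121336 regions on GRCm38, and the submitters' processing notes name cutadapt, Bowtie2, Genrich, bedtools and featureCounts. Per the methods, duplicates were removed and peaks were called per group (cell type and genotype), so a region open in 1 group was counted in all. How the peaks were merged is not given in the sources used here. The members and gene lists were chosen with earlier results of these data known. Groups were taken from the labels. Counts were fitted over the whole table with edgeR 4.0.16 (R 4.3.3, limma 3.58.1), with TMM scaling, 1 mean per group and the quasi-likelihood test with Benjamini-Hochberg adjustment over all regions. A call needed an adjusted p under 0.05 and a log2 fold change past 1. filterByExpr removed no region, and the common biological coefficient of variation was 0.185. The same steps were tested on simulated data. Named members are the 10 highest in WT-GMP, the 10 with the lowest GMP ratio and, for each list, up to 3 with the highest WT-GMP level within 50 kb, and named genes the 10 with the most members nearest to them. Genes and start sites came from the GRCm38 annotation provided, and motif letters and printed sequences from its genome. Alternatives were DESeq2 1.42.0, other scalings, filters, thresholds, motif windows and promoter widths, a replicate block and leaving out each library. Depth was 23072701 to 62204826 counts per library, and floors of 3 counts cover counting error only. The labels do not say which mice gave which libraries. Deviations of same-numbered samples correlated at 0.181, 0.191 and 0.207 between WT-LSK and WT-GMP, so the criterion for pairing was met there, and in no other pair of groups. Between WT-GMP and URE-GMP, whose genotypes exclude a shared mouse, they correlated at 0.0997, 0.205 and 0.349, so values of this size do not show pairing.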

Additional observations from a re-analysis of the deposited data

Results flagged for a closer look

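At the promoters of 3 named genes, in regions that are no members, the genotype effects in LSK and GMP differed by the test of the difference itself (interaction, edgeR's quasi-likelihood test with Benjamini-Hochberg adjustment over all regions). This measure was added after the data had been examined. The Il10ra promoter region had an interaction of -1.17 (SE 0.21, adjusted p = 0.00151). Its mean rose from 7.57 to 13.3 CPM in mutant LSK (log2 fold change 0.81) and was 8.14 (WT) and 6.35 CPM (URE) for GMP. The Emcn promoter region, at -1.21 (SE 0.31, adjusted p = 0.0146), had 5.16 (WT) and 4.2 CPM (URE) for LSK and 2.13 and 0.739 CPM for GMP. This region missed the rule only by its ratio of WT-GMP to WT-LSK (0.418). Its GMP ratio (0.391) and LSK ratio (0.760) met the limits that fix a negative interaction. The Cebpe promoter region ran the other way, at 1.03 (SE 0.31, adjusted p = 0.0317), with 5.58 (WT) and 4.01 CPM (URE) for LSK and 29.9 and 43.4 CPM for GMP. Of 35 such promoter regions, these 3 were called, 2 negative and 1 positive, where 1.09% and 1.76% of the 13356 strongest promoter regions were.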

How the results depend on the processing

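Of 142 alternatives to the results over the members, 124 stayed within 1.5 times the value given, or within its interval, and 18 moved. Many of these recounted contrasts that the rule had selected on, and the set was compared by its size and not by its overlap, so the count supports nothing about the set. The set itself depended most on its constants. It held 337 regions with a constant of 1 (205 shared) and 271 with a GMP ratio of at most 0.33, against 585 with TMM scaling (432 shared). With RLE size factors, another scaling, it held 582 regions, of which only 378 were shared. Leaving out 1 library gave 493 (without WT-GMP replicate 3) to 806 regions (without WT-GMP replicate 1), and 232 members were chosen in all 12. In LSK, 17 members were called with loess offsets, 22 with GC content offsets and 23 with the replicate block and GC content offsets, all higher in URE. Of all regions, 40.3%, 42.4% and 42.8% were called there in either direction. Leaving out 1 library gave 0 to 2 members (2 without URE-LSK replicate 3). Lower calls in GMP were 517 with GC content offsets, 516 with the block as well, 525 by glmTreat and 591 to 598 on leaving out 1 library, and interaction calls from 451 to 516, with 137 by glmTreat. Calls of the WT step were 52 with GC content offsets (37.9% of all regions), 54 with the block as well (38.0%), 14 at a mean CPM of at least 2 (28.1%) and 0 by glmTreat (23.4%). They were 29 to 104 on leaving out 1 library (104 without WT-GMP replicate 3, 58 without WT-LSK replicate 2). The share with PU.1 letters was 9.36% in the central 200 bases, 16.1% in 500 and 49.8% for the core, and the promoter share 14.4% at 1 kb and 6.69% for protein-coding start sites only. With the replicate block, interaction calls were 543 (5.77% of all regions) and WT step calls 32 (37.9%), and the block alone moved no count of calls by over 1.5 times. Depth limits the members with the lowest URE-GMP counts. The cause of these shifts was not tested.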
